A study of Homo sapiens with 4 samples.

Results

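The kallikreins are secreted serine proteases encoded by a single cluster of genes on the long arm of chromosome 19. KLK3, which encodes prostate-specific antigen (PSA), and KLK2 are made by luminal cells of the prostate under control of androgens, and KLK4 is also regulated by androgen. They are made as inactive precursors and are activated by cleavage, partly by each other. In semen they cleave the semenogelins that hold the coagulum together, and the blood level of PSA is used to follow prostate cancer (PCa). Of the kallikrein genes, 10 were examined here, chosen by name: KLK1, KLK2, KLK3, KLK4, KLK5, KLK10, KLK11, KLK12, KLK13 and KLK15. They are 10 of the 60880 genes listed in the count files, and 4 of them (KLK2, KLK3, KLK4 and KLK15) had enough reads to be tested among 15626 genes.

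RNA-Seq was carried out on LNCaP95, a subline of the LNCaP PCa line that grows without androgen and carries wild-type UGT2B17, and on LN95(KO), its derivative with UGT2B17 knocked out by CRISPR. UGT2B17 encodes an enzyme that conjugates androgens to glucuronic acid. LNCaP95 gave 2 libraries, replicates 1 and 2, and LN95(KO) gave 2, replicates 3 and 4, all made from untreated cells grown with charcoal-stripped serum, which is low in steroids. How many knockout clones these libraries represent was not given, nor whether replicates were separate cultures, so the p-values measure only the spread between these libraries.

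Gene reads numbered 17330338 to 18813193 per library. UGT2B17 had 2788 and 2748 reads in LNCaP95 against 21 and 20 in LN95(KO). All 6 luminal and LNCaP markers were detected. Their summed level was 2958 to 2959 CPM (counts scaled by library size) in LNCaP95 and 2698 to 2760 in LN95(KO). By the rule given below, 1 of them was called higher and 1, FOLH1, lower. The basal markers KRT5, KRT14 and TP63 summed to at most 0.164 CPM in LNCaP95 and 1.02 to 1.26 in LN95(KO). KRT14, the marker called higher, had 1 and 2 reads in LNCaP95 against 17 and 20 in LN95(KO). It passed the filter on low counts only through LN95(KO). The 4 neuroendocrine markers summed to 6.50 to 6.93 and 2.30 to 2.43 CPM, respectively, with CHGA at 0. The 4 fibroblast markers summed to 29.5 to 30.0 and 32.1 to 34.5 CPM, with LUM called lower and DCN at 0. LUM had 24 and 19 reads in LNCaP95 and 0 in both LN95(KO) libraries, and passed that filter only through LNCaP95. The 4 leukocyte markers summed to at most 0.395 CPM, with CD3E at 0. The part of the basal and neuroendocrine markers in the results below was not tested. In bulk RNA, fewer cells that make a transcript and less transcript per cell cannot be told apart.

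The start regions of KLK3 and KLK2 are shown because these genes gave the largest differences of the cluster and because their promoters resemble each other. Both are RefSeq sequences of the GRCh38.p14 assembly on the plus strand, from 250 bases before to 50 bases after the annotated start. KLK3 is at chr19:50854665-50854964 and KLK2 at chr19:50873189-50873488. Capitals mark the 15 bases most like the androgen response element, a motif found near androgen-regulated genes, searched here as the 6-base arm AGAACA followed by any 3 bases and the reverse complement of that arm.
KLK3: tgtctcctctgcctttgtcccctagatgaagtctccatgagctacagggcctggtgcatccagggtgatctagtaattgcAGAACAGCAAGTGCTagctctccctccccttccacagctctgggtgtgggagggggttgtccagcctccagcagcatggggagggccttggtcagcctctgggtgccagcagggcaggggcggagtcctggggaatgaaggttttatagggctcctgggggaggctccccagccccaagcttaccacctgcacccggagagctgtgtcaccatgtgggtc
KLK2: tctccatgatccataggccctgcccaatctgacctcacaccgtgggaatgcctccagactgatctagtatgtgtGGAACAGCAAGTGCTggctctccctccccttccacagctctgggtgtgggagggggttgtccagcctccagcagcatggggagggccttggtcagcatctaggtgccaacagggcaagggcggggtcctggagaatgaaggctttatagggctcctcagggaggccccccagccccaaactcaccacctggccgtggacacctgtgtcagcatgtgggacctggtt

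The capitalised stretch of KLK3 lies at -170 to -156 relative to the start and departs from the motif at 2 of its 12 fixed bases (T10A and T13G, counted from 1 at the 5′ end of the motif, motif base first). That of KLK2 lies at -176 to -162 and has 3 departures (A1G, T10A and T13G). Both strands were searched. A match with up to 2 departures was present in 1.41% of the 35116 promoter windows in the RefSeq table and a match with up to 3 in 10.8%. The exact 6-base arm AGAACA, which is part of the longer motif, occurred on either strand in 14.8% of windows and, among the windows of the kallikreins examined, in that of KLK3 alone. Aligned end to end, the KLK3 and KLK2 windows were identical at 245 of 309 aligned positions (79.3%), whereas other pairs of windows of different genes among KLK2, KLK3, KLK4 and KLK15 were 44.5% to 50.5% identical. Windows matched 9 of the 10 genes by symbol, all but KLK1, and the 12 windows of the genes other than KLK2 and KLK3 held no match with up to 3 departures. These are matches of letters in short windows, and no binding was measured.

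KLK2 and KLK3 rose most strongly in LN95(KO), KLK15 rose about 2-fold, and KLK4, the neighbour that gave most of the cluster's reads in LNCaP95, did not rise. Of the 4 genes tested, 3 were called higher and 0 lower, a call requiring both a more than 2-fold change and an adjusted p under 0.05 (edgeR quasi-likelihood test, Benjamini-Hochberg adjustment over all genes tested). Among all genes tested, 18.0% were called, 8.86% higher and 9.13% lower. The libraries of the groups did not overlap for any of the 4 genes, which was also so for 79.8% of all genes tested. Each of the 4 passed the filter on low counts in LNCaP95 as well as in LN95(KO). The remaining 6 genes are described by their reads alone.

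KLK3 (ENSG00000142515.14_3) lies on the plus strand of chromosome 19 at positions 51358171 to 51364020 of GRCh37, the build of the counts. It had 579 and 641 reads in LNCaP95 against 7488 and 7159 in LN95(KO). Both LN95(KO) libraries were far above both LNCaP95 libraries. The level rose from 33.2 ± 2.56 to 408 ± 21.8 CPM (SD, n = 2 per group). The fold change was 12.3 and its log2 value 3.62, with SE 0.06 and an edgeR adjusted p of 1.51e-17. This was the 145th largest rise of the 15626 genes tested.

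KLK2 (ENSG00000167751.12_3), whose product cleaves the PSA precursor to its active form, follows KLK3 on the same strand at positions 51364824 to 51383823. This annotated span begins upstream of the RefSeq start, whose window shown above occurs unchanged at 51376445 to 51376744 of GRCh37. Reads of KLK2 numbered 236 and 225 in the parental libraries, against 6946 and 6638 after knockout. The groups were well apart, and the replicates within each were close. The level rose from 12.5 ± 0.355 to 378 ± 20.3 CPM (SD, n = 2 each), 30.1-fold, at a log2 fold change of 4.91 with SE 0.07 and an edgeR adjusted p of 8.55e-19. It was the 82nd largest rise among all genes tested.

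KLK15 (ENSG00000174562.13_3, minus strand, 51328545 to 51340469) encodes a protease that can also activate PSA in vitro. It had 59 and 71 reads in LNCaP95 against 138 and 135 in LN95(KO). The LN95(KO) libraries were again the higher ones, and the groups did not overlap. KLK15 rose from 3.54 ± 0.481 to 7.60 ± 0.282 CPM (SD, n = 2 each). The log2 fold change was 1.10, with SE 0.16 and an edgeR adjusted p of 1.78e-05. Without LNCaP95 replicate 1 the log2 fold change was 0.97, short of 2-fold.

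KLK4 (ENSG00000167749.11_2, minus strand, 51409607 to 51414651), known for processing enamel proteins in teeth and also made in the prostate, had 4519 and 4332 reads in LNCaP95 against 3504 and 3446 in LN95(KO). The LN95(KO) libraries were the lower ones, and the groups did not overlap. The level was 241 ± 5.88 CPM in LNCaP95 and 193 ± 6.46 CPM in LN95(KO) (SD, n = 2 each). The log2 fold change was -0.32, with SE 0.05 and an edgeR adjusted p of 2.99e-05. The adjusted p passed its threshold but the difference was short of 2-fold, so KLK4 was not called. On the adjusted p alone, 59.8% of all genes tested passed.

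The other 6 genes were near or at the detection limit. KLK5, a protease of the outer epidermis, had 2 and 3 reads in LNCaP95 and 0 in both LN95(KO) libraries. That is 1.63-fold lower with LN95(KO) set to 3 reads over the group. Counting error of the LNCaP95 reads is left out, so this value is no bound. KLK12 had 1 read per library in LNCaP95 against 3 and 2 in LN95(KO), for a ratio of 2.56 with a 95% counting interval of 0.419 to 26.9. KLK1, the tissue kallikrein that releases kinins from kininogen, had 1 and 0 reads in LNCaP95 against 1 and 2 in LN95(KO). KLK10, KLK11 and KLK13 had 0 reads in all 4 libraries, where a count of 0 allows up to 3 reads, or 0.163 to 0.169 CPM. None of these 6 genes had enough reads for a test.

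**Figure D1:**
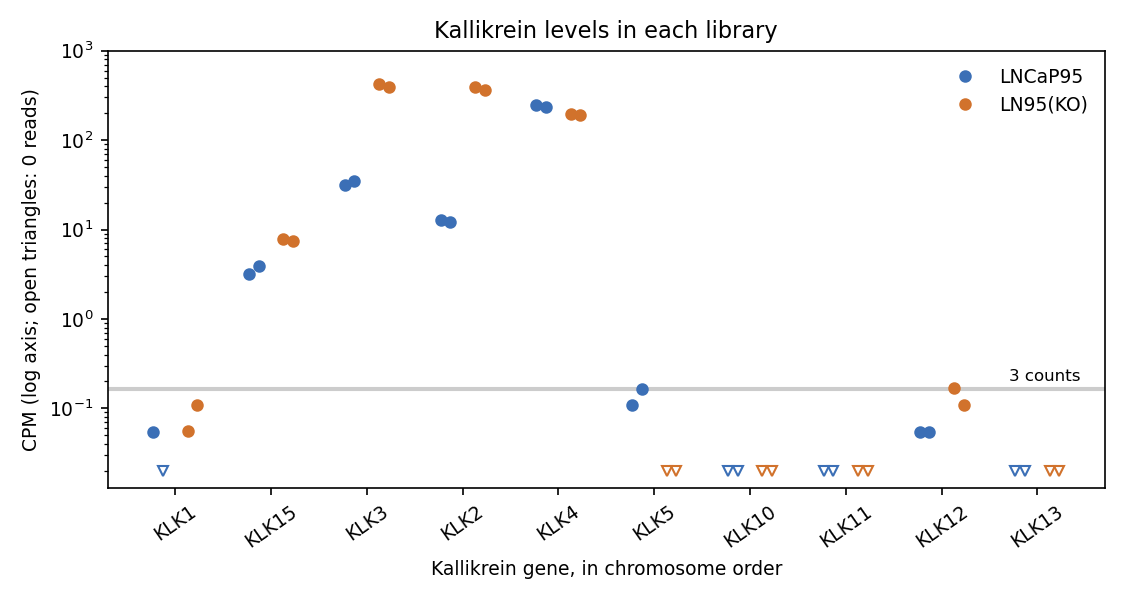
Level of each of the 10 kallikreins in each library, in CPM on a log axis, with genes in chromosome order, LNCaP95 and LN95(KO) libraries as separate points open triangles for libraries with 0 reads and a grey line at 3 counts. KLK2 and KLK3 stand at 12.5 and 33.2 CPM in LNCaP95 and at 378 and 408 CPM in LN95(KO), while KLK4 lies at 241 and 193 CPM.

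The rest of the cluster gave no further call. The remaining kallikrein genes are KLK6, KLK7, KLK8, KLK9 and KLK14, which with the 10 above make 15, and the pseudogene KLKP1. KLK6, KLK8 and KLK9 had 0 reads throughout, KLK7 had at most 2 reads in a library, and KLK14 had 7 and 3 reads in LNCaP95 against 4 and 1 in LN95(KO). KLKP1 alone was tested, with 17 and 18 reads against 18 and 21 (log2 fold change 0.19, SE 0.33, edgeR adjusted p 0.648). All of its exon bases lie under a second annotated gene of the same name, so its count is uncertain.

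Ambiguity in assigning reads of KLK2, KLK3, KLK4 and KLK15 was checked by exon overlap and by shared sequence. None of their exon bases lay under exons of another annotated gene, which matters because strand was not used in counting. KLK2 and KLK3 are close paralogs, but of all 100-base windows of their transcripts 0 were shared. With 50-base windows 11 were shared, 0.160% of those of KLK2 and 0.217% of those of KLK3. The windows were compared for exact identity only, so reads aligned with mismatches were not covered. The share of exon bases under another gene was 12.2% for KLK5, 9.04% for KLK12 and 6.32% for KLK10.

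Within the cluster the makeup of the reads was turned over. The 10 kallikreins together had 5397 and 5273 reads in LNCaP95 against 18080 and 17382 in LN95(KO). These were 0.0287% (95% Wilson interval 0.0279 to 0.0295) and 0.0282% (0.0274 to 0.0289) of gene reads in LNCaP95, and 0.104% (0.103 to 0.106) and 0.0966% (0.0952 to 0.0981) in LN95(KO). The mean share was 3.54-fold higher in LN95(KO). Mitochondrial genes took 22.3% and 23.0% of gene reads in LNCaP95 against 16.3% and 15.6% in LN95(KO), and with those reads left out of the total the mean kallikrein shares were 0.0367% and 0.120%, a rise in the same direction.

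KLK4 gave 83.7% and 82.2% of the kallikrein reads in LNCaP95 against 19.4% and 19.8% in LN95(KO). KLK3 went from 10.7% and 12.2% to 41.4% and 41.2%. KLK2 went from 4.37% and 4.27% to 38.4% and 38.2%. In each case the 2 libraries of a group lay within 2 percentage points of each other and the groups were far apart. KLK15 made up 1.09% and 1.35% in LNCaP95 against 0.763% and 0.777% in LN95(KO), a smaller share of a larger total, and the other 6 genes had 4 reads together in every library.

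**Figure D2:**
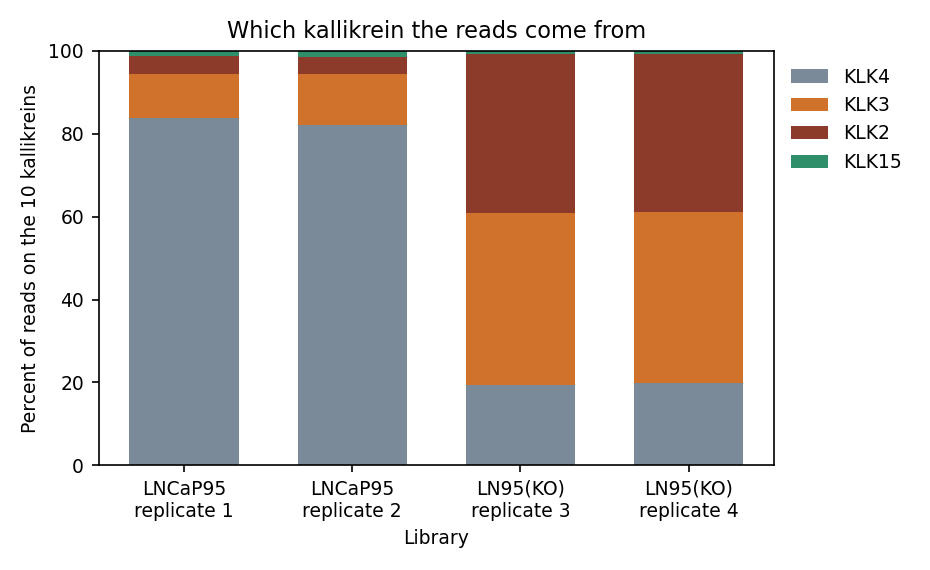
Percent of the reads on the 10 kallikreins that came from each gene, as 1 stacked bar per library, each summing to 100. KLK4 fills 83.7% and 82.2% of the LNCaP95 bars and 19.4% and 19.8% of the LN95(KO) bars, where KLK2 and KLK3 fill the most.

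KLK2 and KLK3 did not rise by the same factor. There were 2.45 (95% exact binomial interval 2.11 to 2.87) and 2.85 (2.44 to 3.33) reads of KLK3 for each read of KLK2 in the LNCaP95 libraries, and 1.08 (1.04 to 1.11) and 1.08 (1.04 to 1.12) in the LN95(KO) libraries. The intervals of the groups did not meet. This ratio is taken within a library and needs no scaling between libraries. The intervals cover counting error only, and 2 libraries against 2 allow no two-sided permutation p under 0.333. Reads of KLK3 per read of KLK4 went from 0.128 and 0.148 to 2.14 and 2.08.

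Levels of different genes were compared per kilobase of merged exons. In LNCaP95 the order was KLK4 at 120 ± 2.94, KLK3 at 7.15 ± 0.553, KLK2 at 1.97 ± 0.0559 and KLK15 at 1.13 ± 0.154 CPM per kb (SD, n = 2 each), with every neighbouring pair apart by more than its spread. In LN95(KO) KLK4 at 96.5 ± 3.23 was followed by KLK3 at 87.9 ± 4.69, with the lower KLK4 library at 94.2 and the higher KLK3 library at 91.2. KLK2 came next at 59.5 ± 3.20, and KLK15 stood at 2.44 ± 0.0906 CPM per kb. The order in LN95(KO) depends on the length used. By the length of the canonical transcript KLK3 came first at 278 ± 14.9, and KLK4 at 137 ± 4.56 and KLK2 at 134 ± 7.17 CPM per kb did not differ beyond their spread. In LNCaP95 the order was the same with both lengths.

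**Figure D3:**
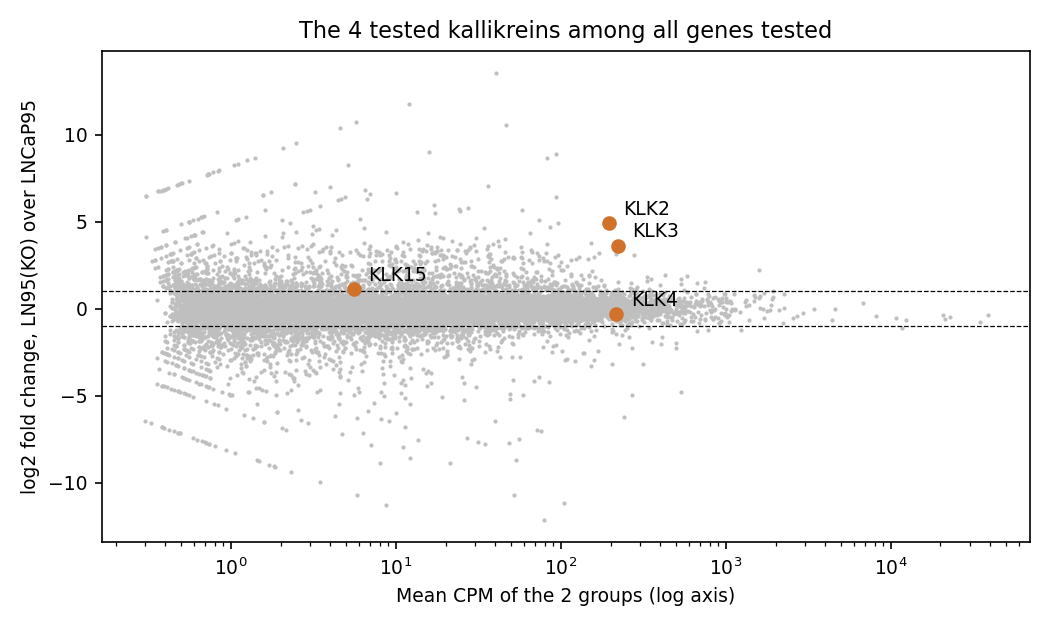
Log2 fold change of LN95(KO) over LNCaP95 against the mean CPM of the groups (log axis) for all genes tested, with the 4 tested kallikreins in orange and dashed lines at a 2-fold change. KLK2 at 4.91 and KLK3 at 3.62 lie at the upper edge of the genes at their level, KLK15 at 1.10 lies just past 2-fold, and KLK4 at -0.32 lies within the bulk.

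Other genes are annotated between the kallikreins and on either side, 42 of them within the cluster or up to 200 kb from it. Of these, 27 had 0 reads in all libraries, 7 were tested, 0 were called higher and 3 lower, where 8.86% and 9.13% of all genes tested were, and the median log2 fold change was -0.52 against -0.01 for all genes tested. With so few genes, the absence of a call higher does not set the region apart from other genes. With no filter on low counts, 15 were tested, of which 3 were called higher and 3 lower. Those higher included ENSG00000267968, a gene within the cluster that overlaps the span of KLK15 and had 9 and 3 reads in LNCaP95 against 20 and 9 in LN95(KO). Its LNCaP95 replicate 1 and LN95(KO) replicate 4 nearly met, at 0.488 and 0.493 CPM. With no filter its log2 fold change was 1.28. With 1 of the nearly meeting libraries left out it was larger, at 2.26 without LNCaP95 replicate 1 and 1.77 without LN95(KO) replicate 4. SYT3, a synaptotagmin, fell from 84 and 83 reads to 5 and 4 (log2 fold change -4.14, SE 0.32, edgeR adjusted p 4.87e-09), and passed the filter only through LNCaP95. C19orf81 fell by 1.84 and CLEC11A, a growth factor of the C-type lectin family, by 1.30 on the log2 scale. C19orf48P, named after its value was seen, lies 14.2 kb from KLK1 and had 5286 and 5367 reads in LNCaP95 against 9709 and 10447 in LN95(KO). Its log2 fold change of 0.95, with SE 0.05 and an edgeR adjusted p of 1.39e-11, was short of 2-fold, and reached 1.01 with scaling by library totals.

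**Figure D4:**
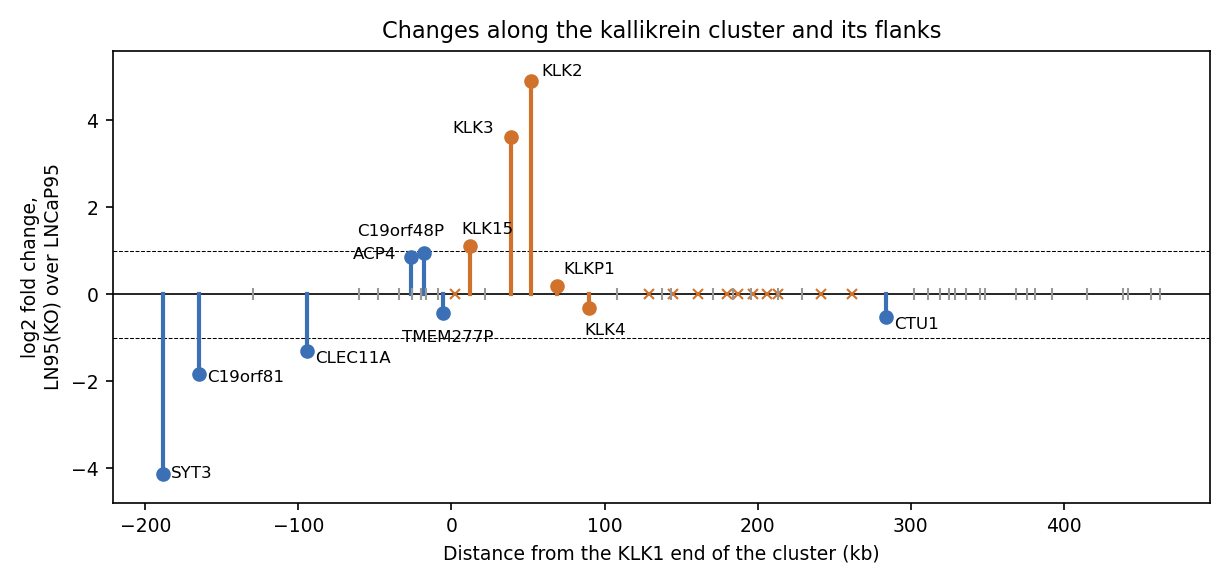
Log2 fold change of tested genes along the cluster and its 200 kb flanks, by distance in kb from the KLK1 end of the cluster, with kallikreins in orange, flanking genes in blue, dashed lines at a 2-fold change, and genes not tested on the zero line as crosses (kallikreins) or grey ticks. KLK3 and KLK2 at 3.62 and 4.91 stand above all other tested genes in the region, and SYT3 at -4.14 is the lowest.

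Among the proteases that can activate kallikrein precursors, 4 of 5 were tested, with a median log2 fold change of 0.87. Of these 4, 1 was called higher and 0 lower, against 8.86% and 9.13% of all genes tested. TMPRSS2, a membrane serine protease regulated by androgen, had 511 and 556 reads in LNCaP95 against 4434 and 3701 in LN95(KO). Both LN95(KO) libraries were higher, at a log2 fold change of 2.96 with SE 0.11 and an edgeR adjusted p of 2.48e-08. Of its exon bases, 8.53% are also under a neighbouring gene. The log2 fold changes of CTSC (0.99), ST14 (0.75) and HPN (0.09) were short of 2-fold, and MMP20 had 0 reads. CTSC, whose value lies at the threshold, was also called without LNCaP95 replicate 1 (1.05), without LN95(KO) replicate 3 (1.08) and with scaling by library totals (1.05).

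Of 13 inhibitors of kallikreins, 4 were tested, and 2 were called higher and 0 lower, against 8.86% and 9.13% of all genes tested. SERPINE2 (protease nexin 1) had 221 and 223 reads in LNCaP95 against 1104 and 1135 in LN95(KO) (log2 fold change 2.37, SE 0.08, edgeR adjusted p 5.53e-14). SERPINF2, the plasmin inhibitor, had 0 reads in each LNCaP95 library against 21 and 15 in LN95(KO). With LNCaP95 set to 3 reads over the group, SERPINF2 was 12.3-fold higher in LN95(KO). It passed the filter only through LN95(KO), so the count of 2 is no support for a change of the list. SERPINA3, the main partner of PSA in blood, had at most 3 reads in a library, and SERPINA5, the protein C inhibitor, at most 2, so neither could be compared at this depth.

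Of 13 substrates and receptors of kallikreins, 8 were tested, and 2 were called higher and 2 lower, against 8.86% and 9.13% of all genes tested. Of these 4 calls, SEMG1 and PTHLH passed the filter on low counts through 1 group only, so the counts are no support for a change of the list. SEMG1 (semenogelin 1, the main PSA substrate in semen) had 0 reads in LNCaP95 against 12 and 14 in LN95(KO). With LNCaP95 set to 3 reads over the group, SEMG1 was 8.87-fold higher in LN95(KO). With either LN95(KO) library left out it was not tested. F2RL1 (the protease-activated receptor PAR2, which KLK2 and KLK4 can cleave) rose from 882 and 822 to 3323 and 3274 reads (log2 fold change 1.99, SE 0.06, edgeR adjusted p 9.58e-15). IGFBP3, an IGF-binding protein that PSA cleaves, fell from 508 and 562 to 94 and 105 reads (log2 fold change -2.39, SE 0.11, edgeR adjusted p 6.73e-12). PTHLH fell from 22 and 18 to 1 and 5 reads (log2 fold change -2.66, SE 0.54, edgeR adjusted p 4.49e-04). Without LN95(KO) replicate 3 its log2 fold change was -1.96, and without replicate 4 it was -4.11. BDKRB2 (a kinin receptor, chosen after its value was seen) passed as lower without LN95(KO) replicate 3 (-1.13). Of the exon bases of F2RL1 and of PTHLH, 10.4% are also under a neighbouring gene.

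Of 18 genes for factors that act on the KLK3 gene, 16 were tested, with a median of 0.11. Of the 16, 1 was called higher and 0 lower, against 8.86% and 9.13% of all genes tested. FOXA1, a pioneer factor that opens chromatin, had 12978 and 12740 reads in LNCaP95 against 6956 and 6953 in LN95(KO) (log2 fold change -0.85, SE 0.05), and HOXB13, a prostate homeobox factor, had 10283 and 10070 against 6837 and 7342 (-0.49, SE 0.05). In both genes the LN95(KO) libraries were the lower ones, with differences short of 2-fold. Over the 16 genes tested, 9 had a log2 fold change above 0 and 7 below.

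Of 11 other seminal plasma proteins, 6 were tested, and 4 were called higher and 0 lower, against 8.86% and 9.13% of all genes tested. CRISP3 had 0 reads in each LNCaP95 library against 164 and 165 in LN95(KO), 112-fold higher with LNCaP95 set to 3 reads over the group. AZGP1 (zinc alpha-2-glycoprotein) rose from 15 and 16 to 96 and 95 reads (log2 fold change 2.65, SE 0.23, edgeR adjusted p 3.39e-08). MSMB (beta-microseminoprotein) had 0 reads in LNCaP95 against 17 and 18 in LN95(KO), 11.9-fold higher with LNCaP95 set to 3 reads over the group. ORM1, which has the close paralog ORM2, had 0 and 2 against 10 and 13 reads, a ratio of 11.8 (95% counting interval 2.91 to 103). Its fitted log2 fold change was 2.48 without LNCaP95 replicate 1 and 6.55 without LNCaP95 replicate 2, and it was not tested without LN95(KO) replicate 4. CRISP3, MSMB and ORM1 passed the filter only through LN95(KO), so the count of 4 is no support for a change of the list. ACP3 (prostatic acid phosphatase) had 3470 and 3554 reads in LNCaP95 against 2658 and 2514 in LN95(KO), for a log2 fold change of -0.41 that was short of 2-fold.

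**Figure D5:**
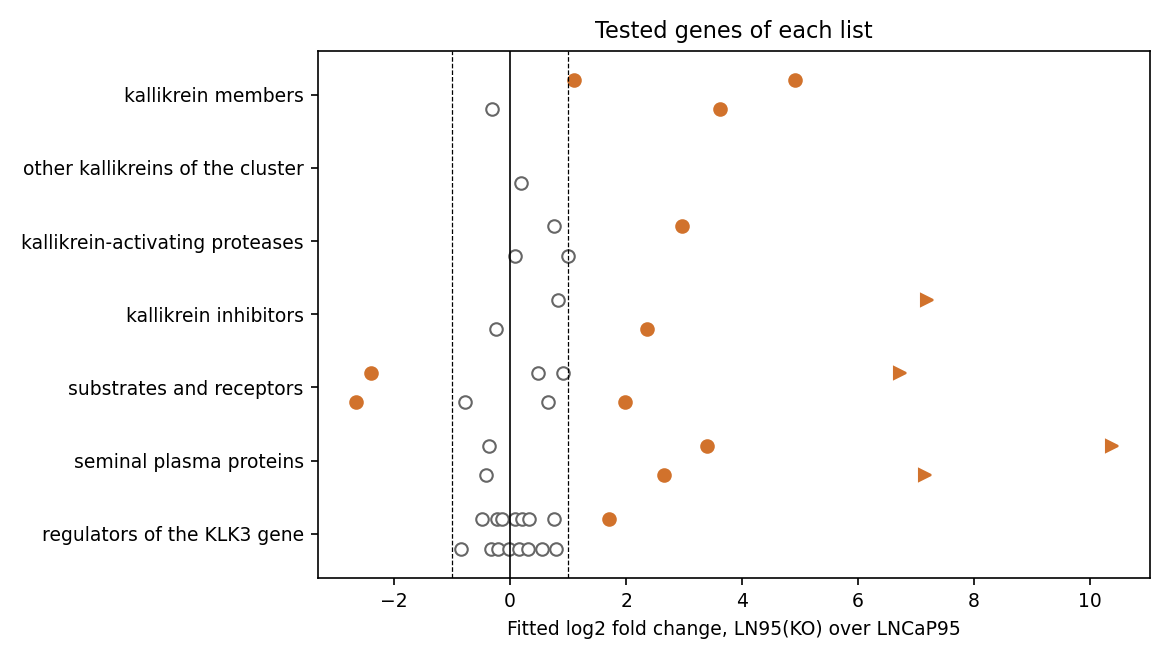
Fitted log2 fold change of each tested gene in the lists described, 1 row per list, with dashed lines at a 2-fold change, filled symbols for called genes, and right-pointing triangles for genes with 0 reads in both LNCaP95 libraries, whose fitted value is no bound. The triangles are SERPINF2, SEMG1, CRISP3 and MSMB, and the regulators of KLK3 lie around a median of 0.11.

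The tested genes whose pattern over the 4 libraries was most like that of each kallikrein were found by the Euclidean distance of log2 CPM (prior count 2) centred on each gene's mean, in log2 units. Nearest to KLK2 were KCNMA1 (0.011), MAF (0.19), EFNA5 (0.23), NRCAM (0.24) and BMPR1B (0.29). KCNMA1, a calcium-activated potassium channel, had 115 and 110 reads in LNCaP95 against 3398 and 3280 in LN95(KO). Nearest to KLK3 were COL4A6 (0.059), S1PR3 (0.12), ADD3 (0.14), HJURP (0.19) and E2F7 (0.23). ADD3, an adducin of the membrane skeleton, had 211 and 223 against 2679 and 2841 reads. KLK2 and KLK3 lay 1.30 apart. NRCAM, with 2 and 2 reads in LNCaP95, and BMPR1B, with 0 in each, passed the filter only through LN95(KO). The prior count draws their log2 CPM differences inward, so they are near KLK2 by this distance although their fitted log2 fold changes of 5.88 and 8.68 are larger than its 4.91.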

How the data were processed

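Poly(A) RNA from LNCaP95 and LN95(KO) cells was sequenced on the DNBseq platform (2 libraries each). The authors deposited raw read counts for each gene, obtained by alignment to hg19 with HISAT2 (version 2.1.0, per the submitters' processing notes) and counting with HTSeq on GENCODE annotation, without strand and without molecular identifiers. The 5 summary lines per file entered neither library sizes nor tests (3.81% to 4.06% of entries on no feature, 9.82% to 10.4% ambiguous). Depth was 17330338 to 18813193 gene reads per library. Replicates differed by more than sampling noise (chi-square per degree of freedom 2.31 in LNCaP95 and 3.31 in LN95(KO)).

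Counts were fitted in edgeR (version 4.0.16, under R 4.3.3) by its quasi-likelihood method, robust, with TMM factors, no covariate and filterByExpr (minimum count 10, minimum total 15). P-values were adjusted by Benjamini-Hochberg over 15626 genes. Calls needed a more than 2-fold change and an adjusted p under 0.05. The standard error is the absolute log2 fold change divided by the square root of F. The procedure was tested on simulated data. A group at 0 was set against 3 counts over the group. The reads of the other group were taken as exact, so these folds are not bounds. Groups with few counts were given as ratios with a counting interval. Intervals are at 95%.

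Symbols matched 59859 of 60880 identifiers. Positions and exon lengths are from GENCODE release 44 on GRCh37, later than the release counted. Promoter sequences are from RefSeq. Groups came from the labels. Named genes are the members, the other kallikreins, at most 4 called genes of each list by smallest adjusted p, FOXA1, HOXB13, the 5 genes nearest to KLK2 and to KLK3, and UGT2B17; markers and other names were added for context. Some genes under this rule are not reported here. The members and lists were chosen with earlier results of these data known. Alternatives were RLE, upper quartile and library total scaling, DESeq2 (version 1.42.0), no filter, no fold threshold, no mitochondrial reads, canonical transcript length (added after seeing the data) and leaving out each library.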

Additional observations from a re-analysis of the deposited data

Results flagged for a closer look

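Unaligned reads, a value outside the gene counts, made up a share that was higher in both LN95(KO) libraries, at 8.05% and 7.71%, than in the LNCaP95 libraries, at 3.85% and 3.96%. It moved with the groups, as did all kallikrein differences described, and its part in them was not tested.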

How the results depend on the processing

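KLK2 and KLK3 were called higher under every alternative run, with log2 fold changes of 4.86 to 4.97 and 3.54 to 3.70, and KLK4 lay between -0.35 and -0.26. KLK15 ranged from 0.97 to 1.25 when 1 library was left out and fell short of 2-fold without LNCaP95 replicate 1, with the lone remaining library assumed to vary like the other group, which left 2 of the kallikreins called. Activating proteases had 2 calls with scaling by library totals and 1 to 2 when 1 library was left out. Flanking genes had 6 calls with no filter, where 15 were tested. Without the fold threshold, 9349 of all genes passed, against 2811. With mitochondrial reads left out of the total, the kallikrein shares were 0.0367% and 0.120%. By canonical transcript length the level of KLK2 was 0.978 and that of KLK3 2.04 times that of KLK4 in LN95(KO). The cause was not tested where not evident from the construction. The other scalings moved the median of all genes by at most 0.05 from 0 on the log2 scale. No paired analysis was possible because replicate numbers 1 and 2 occur only in LNCaP95 and 3 and 4 only in LN95(KO). Genes under about 3 reads per library could not be compared at this depth.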

Other observations

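Some genes of the lists had too few reads to be tested but were uneven between groups. BDKRB1, a kinin receptor, had 1 read per library in LNCaP95 against 5 and 6 in LN95(KO), for a ratio of 5.63 with a 95% counting interval of 1.23 to 52.2. A2M, alpha-2-macroglobulin, which traps PSA in blood, had 2 and 8 reads in LNCaP95 and 0 in both LN95(KO) libraries. With LN95(KO) set to 3 reads over the group, A2M was 3.26-fold lower there. Both were named after their values were seen.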
